A study of Homo sapiens with 38 samples.

Results

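The forkhead transcription factor genes were examined as targets of DPPA2, DPPA4 and chromatin regulators in non-small cell lung cancer cells. Members were taken by name, as protein-coding autosomal genes called FOX followed by 1 letter from A to S and a digit, which gave 49 of 19111 autosomal protein-coding genes in the GENCODE 44 annotation. The promoter of a gene was the transcription start site (TSS) of its canonical transcript ± 1500 bp in hg38. The rule used no measured value. It also took FOXL2NB, a neighbour of FOXL2 that is not a forkhead factor, and the near-identical copies FOXD4, FOXD4L1, FOXD4L3, FOXD4L4, FOXD4L5 and FOXD4L6, at which reads can align to more than 1 copy and single values are uncertain. The same holds for FOXO3B, a copy of FOXO3.

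Protein binding was mapped by CUT&RUN, in which an antibody tethers a nuclease to its target and the DNA cut free is sequenced, and 30 antibody libraries with lists of enriched regions were used. The hairpin lines were bulk-sorted NCI-H661 (H661) cells, a lung cancer line with endogenous DPPA2 and DPPA4, with doxycycline-inducible short hairpins against DPPA4 (shDPPA4) or against both (shDPPA2+4), given 2 µg/mL doxycycline or water for 7 days. Each hairpin line had 7 libraries, with DPPA4 and RING1B in both arms and PCGF1, MTF2 and EP300 in the water arm, and parental H661, which received neither, had 4 libraries from a DPPA2 antibody and 3 DPPA4 antibodies. H1299, a line described as lacking endogenous DPPA2 and DPPA4, was sorted in bulk after integration of inducible Flag-DPPA2 and V5-DPPA4, and both were induced with 2 µg/mL doxycycline for 7 days. It had 12 libraries from 6 antibodies with 2 replicates each. No H1299 library without doxycycline and no library with a non-targeting hairpin was used here, so an effect of doxycycline itself and an effect of the hairpins cannot be told apart. H661 had 1 library per antibody and arm, so its differences have no replicate check and no p-value. The labels do not say whether H1299 replicates were separate cultures, and p-values there measure only the spread between these libraries.

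Forkhead factors share a winged-helix DNA-binding domain and direct the formation of endoderm, mesoderm and the nervous system, the control of metabolism and the cell cycle. FOXA factors open closed chromatin in foregut and lung, FOXJ1 drives the formation of motile cilia, and FOXO factors are kept out of the nucleus by AKT when insulin signals. DPPA2 and DPPA4 are SAP-domain proteins of the early embryo that bind DNA as a pair at CpG-rich promoters. RING1B is the ligase by which Polycomb repressive complex 1 (PRC1) puts ubiquitin on histone H2A, and PCGF1 belongs to a variant PRC1 that is recruited to CpG islands. MTF2 brings Polycomb repressive complex 2 (PRC2) to unmethylated CpG-rich DNA, and EP300 is a histone acetyltransferase of active promoters and enhancers.

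The promoters differed widely in CpG content, and 31 of the 49 FOX promoters (63.3%) were CpG-rich by a rule on the TSS ± 500 bp (GC content above 55% and CpG observed/expected above 0.75), in contrast with 42.8% of all promoters. The median CpG observed/expected ratio was 0.791 at FOX promoters and 0.728 at all promoters. RefSeq promoter sequences (GRCh38.p14) matched the canonical TSS of 36 members. The 250 bases before the TSS are shown here for FOXD2 and FOXC1, which ranked among the strongest DPPA2 and DPPA4 promoters of parental H661, for FOXF2, with a wide MTF2 domain, for FOXP2, with the lowest CpG ratio, for FOXD4L5 and FOXD4L1, of low CpG ratio and without either protein in parental H661, and for FOXI1, which had no region in any library. Sequences that overlap an annotated UTR, such as those of FOXL2, FOXL2NB and FOXN1, are left out, and FOXF2, FOXP2 and FOXI1 were added after their values were seen. Capitals mark CpG dinucleotides, and sequences run 5′ to 3′ on the strand of the gene.
FOXD2: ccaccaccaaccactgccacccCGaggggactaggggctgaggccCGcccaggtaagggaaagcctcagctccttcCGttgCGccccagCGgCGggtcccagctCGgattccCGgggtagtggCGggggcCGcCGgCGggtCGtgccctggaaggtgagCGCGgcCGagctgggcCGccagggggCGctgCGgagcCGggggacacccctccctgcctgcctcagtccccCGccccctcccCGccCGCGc
FOXC1: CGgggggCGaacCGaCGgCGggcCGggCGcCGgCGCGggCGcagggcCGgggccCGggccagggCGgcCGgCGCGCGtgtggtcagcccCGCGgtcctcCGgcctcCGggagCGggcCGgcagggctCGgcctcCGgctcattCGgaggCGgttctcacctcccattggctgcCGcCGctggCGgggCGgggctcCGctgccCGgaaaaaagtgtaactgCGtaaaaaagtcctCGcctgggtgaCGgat
FOXF2: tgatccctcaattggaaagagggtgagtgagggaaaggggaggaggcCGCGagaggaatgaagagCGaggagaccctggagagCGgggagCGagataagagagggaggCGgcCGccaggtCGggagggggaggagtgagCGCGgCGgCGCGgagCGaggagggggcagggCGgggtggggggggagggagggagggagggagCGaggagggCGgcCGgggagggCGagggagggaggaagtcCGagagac
FOXP2: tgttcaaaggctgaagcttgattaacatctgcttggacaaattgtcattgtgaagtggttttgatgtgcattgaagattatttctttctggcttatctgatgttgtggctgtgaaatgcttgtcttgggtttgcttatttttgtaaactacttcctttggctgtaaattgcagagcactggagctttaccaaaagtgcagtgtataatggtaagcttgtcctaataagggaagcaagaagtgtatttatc
FOXD4L5: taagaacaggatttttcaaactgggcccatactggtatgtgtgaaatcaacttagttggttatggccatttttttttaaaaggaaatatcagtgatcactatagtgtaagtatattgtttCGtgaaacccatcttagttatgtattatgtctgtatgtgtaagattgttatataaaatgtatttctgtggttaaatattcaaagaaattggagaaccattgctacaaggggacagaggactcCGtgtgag
FOXD4L1: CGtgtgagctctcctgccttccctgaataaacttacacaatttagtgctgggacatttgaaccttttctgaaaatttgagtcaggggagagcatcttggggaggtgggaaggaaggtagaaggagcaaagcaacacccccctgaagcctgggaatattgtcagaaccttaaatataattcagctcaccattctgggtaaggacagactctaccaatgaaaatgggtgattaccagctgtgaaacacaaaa
FOXI1: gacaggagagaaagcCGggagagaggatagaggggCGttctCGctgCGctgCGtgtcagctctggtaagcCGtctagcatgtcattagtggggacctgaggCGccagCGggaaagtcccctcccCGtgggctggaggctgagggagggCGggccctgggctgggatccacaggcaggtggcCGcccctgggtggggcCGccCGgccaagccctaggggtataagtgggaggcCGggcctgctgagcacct
These stretches lie at chr1:47437794-47438043 (plus strand, FOXD2), chr6:1609665-1609914 (plus, FOXC1), chr6:1389326-1389575 (plus, FOXF2), chr7:114414565-114414814 (plus, FOXP2), chr9:65285210-65285459 (minus, FOXD4L5), chr2:113498415-113498664 (plus, FOXD4L1) and chr5:170105647-170105896 (plus, FOXI1). The stretch held 24 CpG dinucleotides at FOXD2, 37 at FOXC1 and 20 at FOXF2, but 0 at FOXP2, 2 at FOXD4L5, 1 at FOXD4L1 and 14 at FOXI1. The median was 22.5 over the 36 matched members and 19 over 13888 matched promoters. The forkhead core motif TGTTTAC, searched on both strands in the 300 bases around the TSS (250 before, 50 after), was found at 0 of the 36 members and at 2.39% of the 13888 promoters.

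DPPA2 and DPPA4 together occupied the promoters of about 1 in 2 FOX genes in parental H661. Counted by MACS2 peaks with a fold over IgG above 2 and a q-value below 0.05, peaks of both the DPPA2 antibody and the N-terminal DPPA4 antibody touched 25 of 49 FOX promoters (51.0%), while 40.1% of all promoters had both. DPPA2 without a peak of that DPPA4 antibody was found at 10 members (20.4%) and at 7.28% of all promoters, and 5 of the 10 (FOXP1, FOXQ1, FOXO3B, FOXA3 and FOXS1) had a peak of another DPPA4 antibody, ab154642. The N-terminal antibody without DPPA2 was found at 2 members, FOXP2 and FOXD4L4, and at 7.8% of all promoters, and neither at 12 members (24.5%) and at 44.8% of all promoters. Within the CpG-rich class the gap in the joint count was small, with 20 of 31 members (64.5%) and 61.8% of all CpG-rich promoters. Of the 7 CpG-poor members none had both proteins. The DPPA2 antibody gave a peak at 35 members (47.4% of all promoters) and the N-terminal DPPA4 antibody at 27 (47.9%), and ab154642 at 30 (51.6%), with DPPA2 and ab154642 together at 28 (41.6% of all promoters), whereas the central-region DPPA4 antibody gave one at 0 FOX promoters (5.64% of all).

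The strongest of these promoters was the divergent start of FOXL2, a regulator of the ovary and eyelid, and FOXL2NB, whose windows overlap so that the same peaks count for both. It had a 22.1-fold DPPA2 peak and an 18.4-fold DPPA4 peak. FOXD2, expressed in kidney and face mesenchyme, had 19.8-fold and 17.3-fold peaks of DPPA2 and DPPA4, and FOXC1, a regulator of eye and vessel development, had 13.04-fold and 13.96-fold peaks. These 4 members came first when each member was placed by the worse of its ranks for the 2 proteins. FOXO3 followed with 15.9-fold and 10.49-fold peaks, and FOXO1 with 10.8-fold peaks of both. FOXO1 and FOXO3 are among the FOXO factors held in check by AKT.

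Among endoderm and airway regulators, 5 of 9 had both proteins, and all of them had weak peaks next to those of FOXL2. FOXA1, which opens chromatin in foregut, had 4.8-fold DPPA2 and 7.0-fold DPPA4 peaks. FOXA2 and FOXA3, its relatives of gut and liver, had a DPPA2 peak (4.5-fold and 5.3-fold) and no peak of the N-terminal DPPA4 antibody, although FOXA3 had a 5.7-fold peak of ab154642. FOXJ1, the regulator of motile cilia, had 4.5-fold and 5.2-fold peaks, and FOXM1, which drives genes of mitosis, 5.7-fold and 5.5-fold peaks at a start shared with RHNO1. FOXP4, a factor of the lung epithelium, had 7.0-fold and 5.9-fold peaks, while its relative FOXP1 had a 5.0-fold DPPA2 peak and a DPPA4 peak with ab154642 only, of 5.6-fold, and FOXP2 had a 4.2-fold DPPA4 peak and no DPPA2 peak. The window of FOXP2 was that of an internal start, and with the 5′ end of the gene in its place FOXP2 had both proteins and FOXN3, also placed at an internal start, did not.

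Of the other groups, both proteins were found at 7 of 13 neural, neural crest and sensory regulators, 4 of 8 mesoderm, mesenchyme and vessel regulators, and 7 of 10 broadly expressed metabolic and cell cycle regulators. Group names are broad labels, and some members have another role as described here. FOXQ1 was counted with the mesoderm group, and FOXL2, FOXD2 and FOXN1 with the neural and sensory group. FOXM1 and FOXN4 were counted with the endoderm and airway group, and FOXO6 and FOXR1 with the broadly expressed group. The FOXD4 paralogs had both at 1 of 6, FOXD4. Of FOXK1 and FOXK2, which repress autophagy and glycolysis genes or activate them depending on context, FOXK2 had 7.4-fold DPPA2 and 9.5-fold DPPA4 peaks, and FOXK1 had neither. The mesenchyme factors FOXF1 and FOXF2 had 7.9-fold and 6.8-fold DPPA2 peaks and 5.7-fold and 5.1-fold DPPA4 peaks. A list of FOXO regulators held insulin and PI3K-AKT genes and others such as SIRT1, MDM2, USP7 and STK4. It carried both proteins at 23 of 31 promoters, against 40.1% of all promoters and 61.8% of all CpG-rich promoters. The CpG content of this list was not compared. PIK3CA, AKT1, AKT2 and IGF1R had both proteins, and INSR, IRS2, SGK1 and SGK2 did not.

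**Figure D1:**
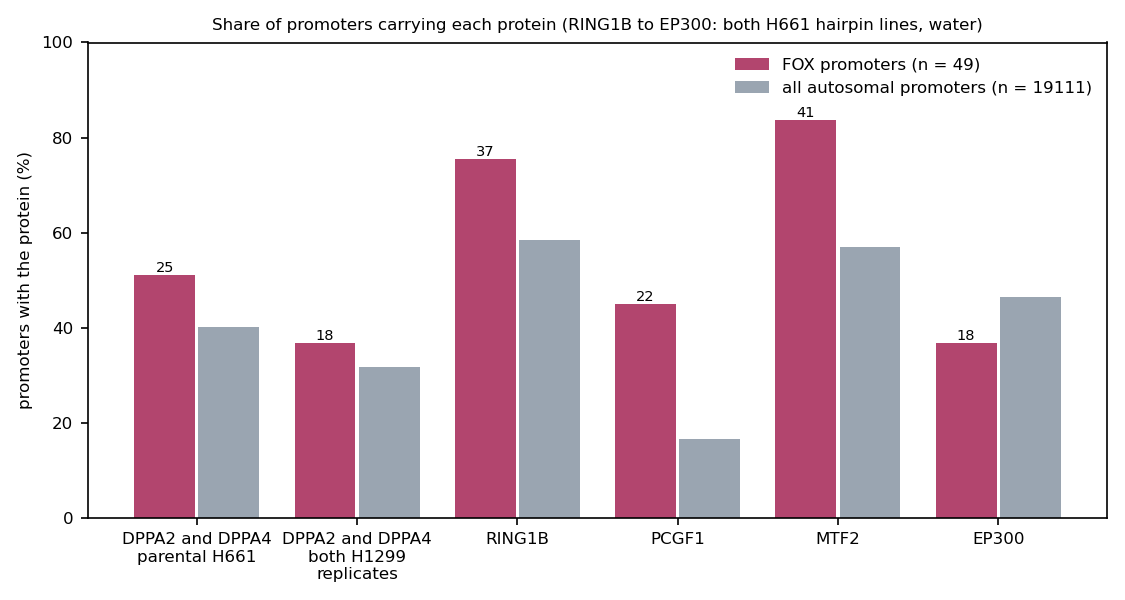
Share of promoters (vertical axis, percent) that carry DPPA2 and DPPA4 (MACS2 peaks in parental H661, EPIC2 domains in both replicates in H1299) or RING1B, PCGF1, MTF2 and EP300 (EPIC2 domains in the water arms of both hairpin lines), for the 49 FOX promoters (red, with the number above the bar) and all 19111 promoters (grey). The widest gaps are those of PCGF1 and MTF2, and EP300 is the protein whose share is lower at FOX promoters.

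Polycomb proteins were found at more FOX promoters than promoters in general, and EP300 at fewer. Counted by EPIC2 domains with a log2 fold over IgG above 1 and an FDR below 0.05 in the water arms of both hairpin lines, MTF2 was present at 41 of 49 FOX promoters (83.7%), while it was present at 56.9% of all promoters. RING1B was present at 37 (75.5%), against 58.5% of all promoters, and PCGF1 at 22 (44.9%), against 16.5%. EP300 was present at 18 (36.7%), against 46.5%. RING1B, PCGF1 and MTF2 occurred together at 22 members (44.9%) and at 13% of all promoters, so that every FOX promoter with PCGF1 in both lines also had the other 2 proteins there. With EP300 added, all 4 occurred at 13 members (26.5%) and at 11.2% of all promoters. MTF2 in both lines with EP300 in neither was found at 16 members (32.7%) and at 13.3% of all promoters.

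PCGF1 was also more frequent at FOX promoters than at other promoters of like CpG content, and the gap in RING1B was small there. In the CpG-rich class PCGF1 was present at 19 of 31 members (61.3%) and at 26.4% of all CpG-rich promoters. EP300 was present at 17 of these 31 members (54.8%) and at 68.5% of the class, RING1B at 28 (90.3%) and at 84.9%, and MTF2 at 29 (93.5%) and at 81.6%. At promoters of intermediate CpG content EP300 was present at 1 of 11 members, FOXE1, and at 54% of the class, whereas MTF2 was present at 10 of 11 members and at 61.8% of the class.

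The groups of members differed most in EP300. It was present at 8 of 10 broadly expressed regulators (46.5% of all promoters; FOXO1, FOXO3, FOXO6, FOXJ2, FOXJ3, FOXK2, FOXN2 and FOXN3), at 6 of 13 neural and sensory regulators, at 2 of 8 mesoderm regulators (FOXC1 and FOXC2), at 2 of 9 endoderm and airway regulators (FOXP4 and FOXA3) and at 0 of 6 FOXD4 paralogs. PCGF1, present at 16.5% of all promoters, was found at 9 of 13 neural and sensory regulators and 5 of 8 mesoderm regulators, but at 4 of 10 broadly expressed and 2 of 9 endoderm and airway regulators. MTF2, present at 56.9% of all promoters, was found at 9 of 10 broadly expressed regulators, 8 of 9 endoderm and airway regulators and 5 of 6 FOXD4 paralogs. Among the listed insulin, PI3K-AKT and other FOXO regulators, EP300 was present at 24 of 31 promoters (46.5% of all), and PCGF1 at 6, a share close to the 16.5% of all promoters.

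MTF2 and RING1B domains were also wider at FOX promoters. The median width of the widest MTF2 domain, averaged over both lines, was 2.6 kb at the 41 FOX promoters and 1.2 kb at all promoters with a domain in both lines, and that of RING1B was 1.8 kb and 0.9 kb. Domains averaging at least 5 kb, a limit chosen after the widths were seen, were found for MTF2 at 13 of 41 members (31.7%) and at 6.62% of all promoters with MTF2. For RING1B they were found at 6 of 37 members (16.2%) and at 0.895%, and for DPPA4 at 7 of 39 members (17.9%) and at 7.07%. No FOX promoter had a PCGF1 or EP300 domain of that width (0.127% and 0% of all promoters with the protein).

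The widest MTF2 domain lay at FOXF1, a regulator of lung mesenchyme and gut muscle, with 33.1 kb in shDPPA4 and 26 kb in shDPPA2+4. Its relative FOXF2 had domains of 22.9 kb and 27.6 kb, and FOXB1, of the hypothalamus and midbrain, 25.4 kb and 23.8 kb in the same 2 lines. FOXB2 had 14 kb and 15.5 kb, and FOXD3, which maintains neural crest precursors, 11.7 kb and 11.9 kb. Of the 13 members with wide MTF2, 5 were in the mesoderm group (FOXC1, FOXC2, FOXF1, FOXF2 and FOXQ1), 5 in the neural and sensory group (FOXB1, FOXB2, FOXD3, FOXI2 and FOXI3), 2 in the endoderm and airway group (FOXA2 and FOXP1) and 1 was FOXD4. None was in the group named broadly expressed regulators, although 9 of its 10 members carried MTF2.

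RING1B domains were widest at FOXF1 (16 kb in shDPPA4 and 7.4 kb in shDPPA2+4), FOXD3 (11.2 kb and 6.6 kb) and FOXD4 (7.8 kb and 8.5 kb), followed by FOXC1 (8.3 kb and 7.3 kb) and FOXC2 (5.1 kb and 5.8 kb), a regulator of lymphatic vessels. The domain at FOXD4 may hold reads of its copies. Wide DPPA4 domains lay at FOXF1 (6.4 kb in shDPPA4 water cells and 7.7 kb in shDPPA2+4 water cells) and FOXC1 (8.8 kb and 5.2 kb). FOXA2 stood apart in having MTF2 domains of 5.7 kb and 7.8 kb with no DPPA4, PCGF1 or EP300 domain in either line and RING1B with water only in shDPPA2+4.

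**Figure D2:**
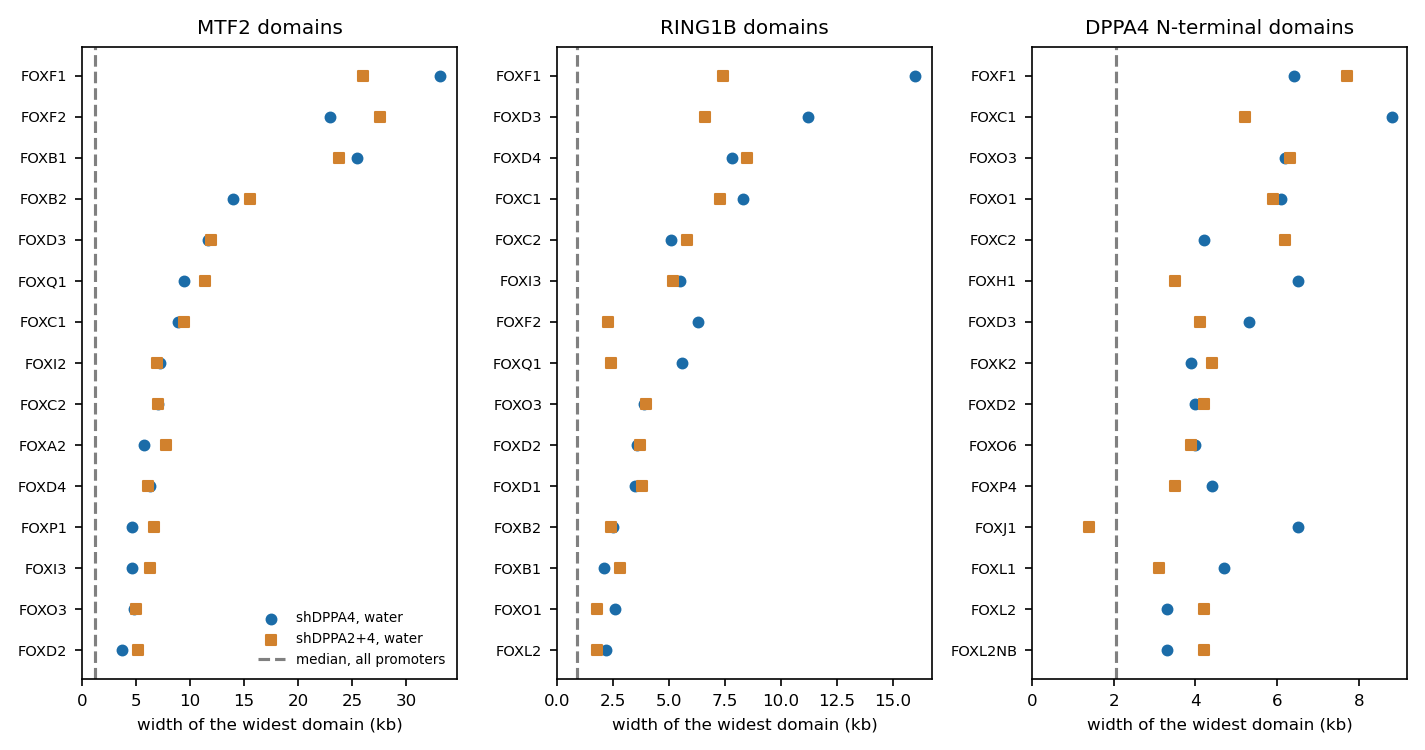
Width of the widest domain touching the promoter (horizontal axes, kb) for 15 members with wide MTF2, RING1B and DPPA4 domains, with a point for the water arm of shDPPA4 (circles) and of shDPPA2+4 (squares) and the median over all promoters as a dashed line. FOXF1, FOXF2 and FOXB1 carry MTF2 over more than 20 kb in both lines, and FOXF1 leads the members drawn for RING1B and DPPA4 also.

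Members ranged from no region at all to a domain in every library. FOXD2 had an EPIC2 domain in all 30 libraries, which 0.848% of all promoters had, and FOXL2, FOXL2NB, FOXC1, FOXD1, FOXO3 and FOXP4 had one in 29. The median over members was 20 libraries. FOXI1, a regulator of inner ear and acid-secreting cells, and FOXR1 had no region of either caller in any library, which was so for 15.7% of all promoters. FOXN1, the factor of thymus and hair epithelium, had a DPPA4 domain in shDPPA4 water cells as its only domain, and FOXD4L6 a RING1B domain in shDPPA4 cells with doxycycline, although MACS2 peaks touched the window of FOXD4L6 in 8 libraries. FOXD4L1 and FOXD4L5 had MTF2 domains in both lines and no other domain. Low CpG content did not go with few libraries throughout. FOXP2, with a ratio of 0.180, had domains in 12 libraries and FOXH1, which acts with SMAD proteins in Nodal signalling and had a ratio of 0.386, in 16, whereas FOXB1, with a ratio of 0.957, had domains in 9. At FOXH1 most MACS2 summits, those of DPPA4 in the water arms among them, lay more than 1500 bp from the TSS.

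**Figure D3:**
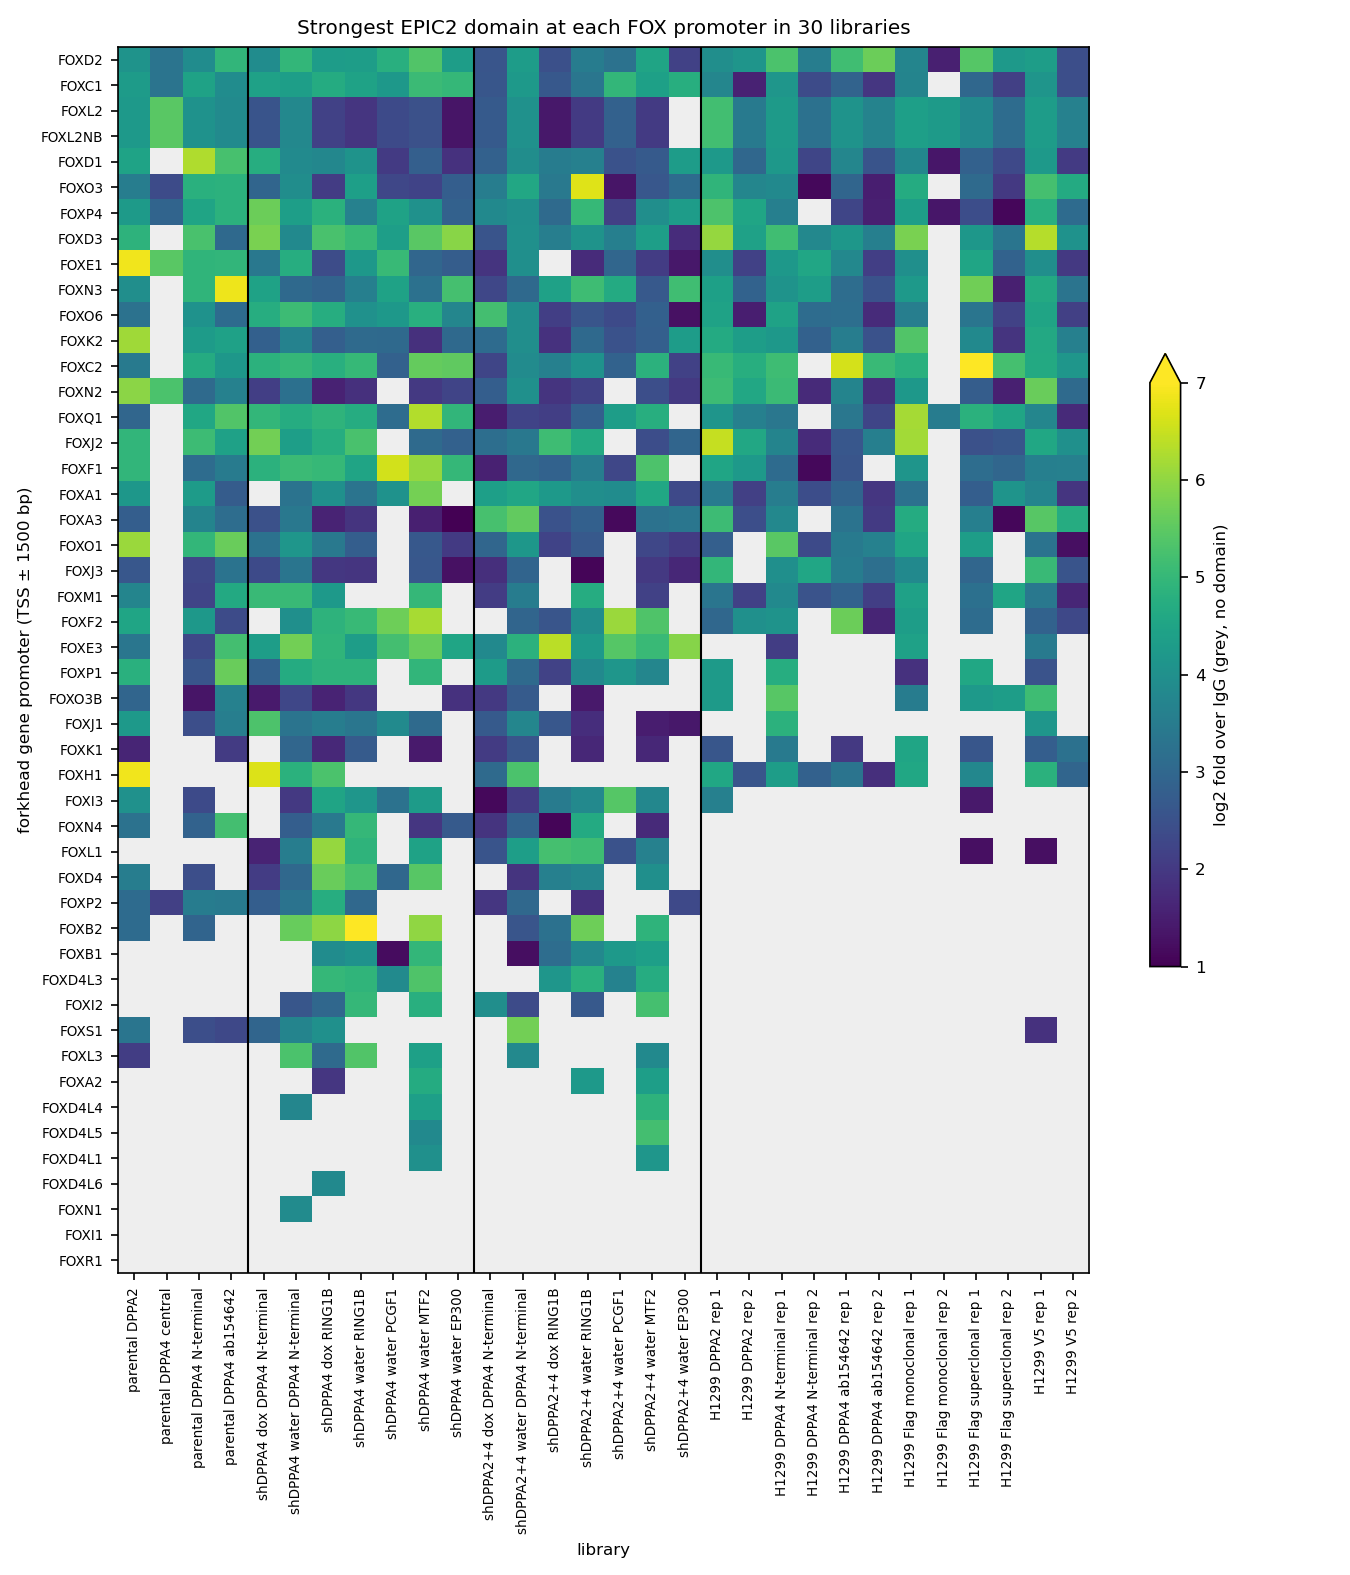
Log2 fold over IgG (colour) of the strongest EPIC2 domain at 48 FOX promoters (rows, by number of libraries) in the 30 libraries (columns, parental H661, shDPPA4, shDPPA2+4 and H1299 from left to right, doxycycline (dox) left of water). Grey cells had no domain. Members in the lower rows have few domains, nearly all of them in the hairpin lines, and FOXI1 and FOXR1 have none.

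**Figure D4:**
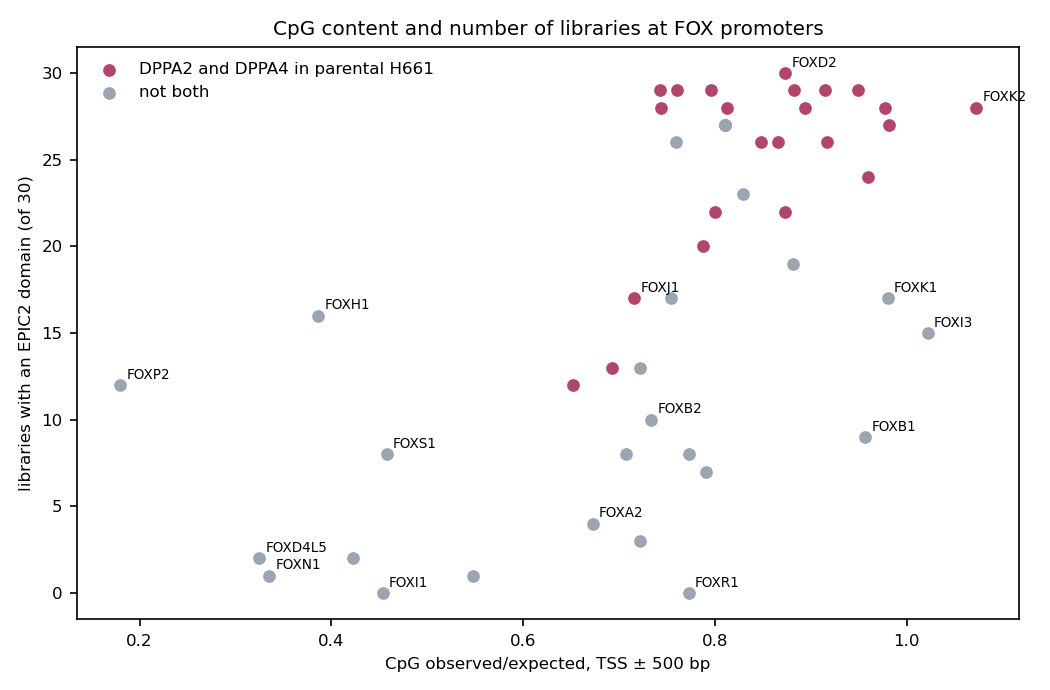
Number of libraries with an EPIC2 domain (vertical axis, of 30) against the CpG observed/expected ratio of the TSS ± 500 bp (horizontal axis) for 48 FOX promoters, coloured by DPPA2 and DPPA4 in parental H661. FOXP2 and FOXH1 combine low ratios with 12 and 16 libraries, and FOXB1 a high ratio with 9.

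Expression of tagged DPPA2 and DPPA4 in H1299 placed both at a part of the FOX promoters that carried them in H661. EPIC2 domains of the DPPA2 and the N-terminal DPPA4 antibody were present in both replicates at 18 of 49 FOX promoters (36.7%), while 31.8% of all promoters had both. Replicate 2 decided this count, since replicate 1 alone gave 28 members (62.5% of all promoters) and replicate 2 alone 18 (31.8%). The EPIC2 domains of replicate 2 held between 48208 and 796837 reads per library and those of replicate 1 between 998957 and 2992033. The Flag monoclonal library of replicate 2 was the shallowest, with 6 members (5.5% of all promoters). All 18 but FOXH1 also had both proteins in parental H661, which makes 17 members (34.7%) with both proteins in both lines and 24% of all promoters. FOXH1 had a DPPA2 peak and no N-terminal DPPA4 peak in parental H661, although DPPA4 peaks of 28.4-fold and 20.9-fold touched its window in the water arms of shDPPA4 and shDPPA2+4. The summits of those 2 peaks lay outside the window, at -2339 bp and -2333 bp from the TSS. MACS2 summits at FOXH1 in H1299 replicate 1 also lay outside it, at -2271 to -2339 bp.

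The 8 members with both proteins in H661 but not in both H1299 replicates were FOXE3, FOXF2, FOXP4, FOXD4, FOXN4, FOXO1, FOXC2 and FOXJ1. They made up 16.3% of members, a share close to the 16.1% of all promoters. Of these 8, FOXE3, FOXD4, FOXN4 and FOXJ1 also lacked the pair in replicate 1 of H1299 (4 members, 8.16%, and 2.32% of all promoters). FOXF2, FOXP4, FOXO1 and FOXC2 had it there. The lines were counted with different callers, and EPIC2 domains in parental H661 gave 34 members with both proteins (69.4%). EPIC2 also raised the background there, with DPPA2 domains at 54.8% and N-terminal DPPA4 domains at 56.3% of all promoters. The share of all promoters with both by EPIC2 was not counted. At FOXJ1 the only H1299 domains were those of the N-terminal DPPA4 antibody (log2 fold 4.87) and of V5 (4.14) in replicate 1. A total of 16 members had no domain in any of the 12 H1299 libraries (32.7%, and 30.6% of all promoters), among them FOXA2, FOXB1, FOXB2, FOXP2 and the 6 FOXD4 paralogs. Of the endoderm and airway regulators, FOXM1 and FOXA1 had both proteins in both replicates. In the 6 libraries directed at DPPA2 (the DPPA2 and both Flag antibodies), the log2 fold at FOXA1 had a lowest value of 0, where no domain was called, a median of 3.01 and a highest value of 4.11. In the 6 libraries directed at DPPA4 (the N-terminal, ab154642 and V5 antibodies) it had a lowest value of 1.94, a median of 2.68 and a highest value of 3.74, so that the classes overlapped.

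No FOX promoter differed between the 2 classes of H1299 libraries after adjustment. An exact two-sided permutation test of 6 against 6 libraries on the log2 fold of the strongest domain, with Benjamini-Hochberg adjustment over 13259 promoters with a domain in at least 1 library, called 0 of 33 members tested (0% of all promoters tested). At an unadjusted p below 0.05 it gave 1 member and 140 promoters (1.06%). The smallest p of the design was 0.00216, and at least 575 promoters at that value would have been needed to pass. The member was FOXQ1, a factor of stomach and hair named here after its value was seen. Its libraries directed at DPPA2 had a lowest log2 fold of 3.53, a median of 4.33 and a highest of 6.20, and those directed at DPPA4 0, 2.81 and 3.77, where 0 stands for a library without a domain. The difference was 2.06 (4.47 ± 0.99 and 2.41 ± 1.42, SD, n = 6 libraries each, exact permutation p = 0.0087, adjusted p = 1). At FOXL2, with domains in all 12 libraries, the means were 4.05 ± 0.73 and 3.87 ± 0.43. Both replicates of an antibody were set against the same mouse or rabbit IgG library, so their folds are not independent. Mouse and rabbit antibodies were not split evenly between the 2 classes. At FOXQ1 the folds rest on 0 to 3 IgG reads per library with a domain.

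After scaling for library size, DPPA4 density was lower with doxycycline at nearly all FOX promoters where it could be compared. Without scaling the median change per kb of domain was -1.45 in shDPPA4 but 0.01 in shDPPA2+4. The direction per kb in shDPPA2+4 thus rests on the scaling, while the divisor, the length of the domains, was also smaller there with doxycycline. Density was the reads per kb of EPIC2 domain per library read, where the ratio of library sizes came from the IgG control that both arms shared. Domains were called in each arm on its own, and density divides by their length. DPPA4 domains at the FOX promoters compared covered a median of 1.9 kb with doxycycline and 3.9 kb with water in shDPPA4 (narrower with doxycycline at 31 of 31), and 2.2 kb and 3.8 kb in shDPPA2+4 (narrower at 30 of 34). In shDPPA4 cells 31 members had a DPPA4 domain with doxycycline and 41 with water (57.7% and 72.7% of all promoters), and in shDPPA2+4 cells 34 and 40 (62.3% and 68.6%). The median log2 change at FOX promoters with a domain in both arms was -0.61 in shDPPA4 (31 members, 29 of them below 0) and -0.93 in shDPPA2+4 (34 members, 33 below 0). At all promoters it was -0.37 and -0.62, so that FOX promoters lay 0.24 and 0.31 lower in the 2 lines. The scaling cancels in that distance, but the length of the domains, called in each arm on its own, still enters it. Against all CpG-rich promoters the distance was -0.18 in shDPPA4 and -0.26 in shDPPA2+4. An alternative chosen after seeing the data prorated the reads to the promoter window, with positions outside domains at 0, so that the length of the domains is no longer the divisor. It gave medians of -1.29 and -1.30, with 31 of 31 and 34 of 34 members below 0, and a distance to all promoters of -0.07 and -0.24.

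A change of at least 2-fold down was reached by 3 members in shDPPA4 (9.68% of those compared, and 8.26% of all promoters) and by 13 in shDPPA2+4 (38.2%, and 19.3% of all). These counts rest on the scaling and on the divisor. Without scaling they were 27 and 0, and with prorated reads 23 and 29. The share of all promoters was not counted under these settings. The median change of all promoters moved too, to -1.21 in shDPPA4 and 0.32 in shDPPA2+4 without scaling, and to -1.22 and -1.06 with prorated reads. A domain present with water was absent with doxycycline at 10 of 41 members in shDPPA4 (24.4%, and 20.8% of all promoters) and at 6 of 40 in shDPPA2+4 (9.75% of all). FOXF2, FOXL3 and FOXB2 were in both sets, and FOXA1 and FOXK1 in that of shDPPA4. These losses are of EPIC2 domains. MACS2 still called a DPPA4 peak at FOXF2 and FOXA1 in shDPPA4 with doxycycline. No member gained a DPPA4 domain in either line (0.46% and 1.27% of all promoters without one with water), and none had a DPPA4 density at least 2-fold higher (1.3% and 0.22% of all promoters compared).

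Per kb of domain, the lowest mean changes over both lines were those of FOXD3, FOXD2 and FOXF1, and the members at both ends of this order depend on the length of the domains. At FOXD3 the density was 34.8 reads per kb with doxycycline, against 112 with water, in shDPPA4, and 41.2 against 75.1 in shDPPA2+4, which after scaling gave log2 changes of -0.86 ± 0.18 and -1.81 ± 0.15 (counting error only). At FOXD2 the log2 changes were -1.01 ± 0.12 and -1.66 ± 0.12, and at FOXF1 -1.10 ± 0.21 and -1.08 ± 0.20. The highest were those of FOXJ1, with 0.21 ± 0.34 and -0.05 ± 0.29, FOXP1, with 0.12 ± 0.44 and -0.14 ± 0.49, and FOXP2, with -0.03 ± 0.24 and -0.57 ± 0.23. The DPPA4 domain at FOXJ1 spanned 400 bp with doxycycline and 6500 bp with water in shDPPA4, and that at FOXP1 600 bp and 2100 bp. With reads prorated to the window FOXJ1 had -2.38 and -1.56, FOXP1 -1.87 and -2.90, and FOXD3 -1.91 and -1.93, so that FOXJ1 and FOXP1 were no longer among the members of small change. With the strongest domain alone FOXJ1 had 1.74 in shDPPA4. FOXO3 had -0.90 ± 0.08 and -0.93 ± 0.07, and FOXO1 -0.61 ± 0.10 and -1.07 ± 0.09.

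EPIC2 domains of RING1B were found at more FOX promoters with doxycycline than with water in shDPPA4 and at fewer in shDPPA2+4. The difference between the lines was not tested. In shDPPA4 cells 43 members had a RING1B domain with doxycycline and 38 with water (66.6% and 64.6% of all promoters), whereas in shDPPA2+4 cells 30 had one with doxycycline and 39 with water (49.3% and 60.8%). With MACS2 peaks the count was lower with doxycycline in both lines, so the direction in shDPPA4 depends on the caller. MACS2 gave 35 members with doxycycline and 39 with water in shDPPA4 (49.1% and 59.5% of all promoters). In shDPPA2+4 it gave 29 and 40 (28.6% and 58.0%). The EPIC2 domains of RING1B in shDPPA4 held 2418785 reads with doxycycline and 1510442 with water. In shDPPA4 a domain absent with water appeared with doxycycline at 5 members, FOXH1, FOXD4L6, FOXM1, FOXA2 and FOXS1 (12.8% of all promoters without one), and none of the 38 lost theirs (3.85% of all). Of these, FOXD4L6 already had a MACS2 peak of RING1B with water. In shDPPA2+4, 9 of 39 members lost theirs (23.1%, and 22.7% of all promoters), among them FOXJ3, FOXK1, FOXP2, FOXE1, FOXM1 and FOXA2, and none gained one (5.88% of all).

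Where both arms had a domain, the median log2 change in RING1B density was -0.18 at 38 FOX promoters in shDPPA4, against -0.28 at all promoters, and -0.60 at 30 FOX promoters in shDPPA2+4, against -0.69. Without scaling for library size both medians at FOX promoters were above 0 (0.18 in shDPPA4 and 0.09 in shDPPA2+4). FOX promoters lay 0.10 above all promoters in shDPPA4, and 0.24 above with prorated reads, where their own median was 0.16. In shDPPA2+4 they lay 0.09 above, a distance that was 0.02 with the strongest domain alone, 0.03 without a fold limit, 0.01 with TSS ± 500 bp and -0.03 with prorated reads. RING1B domains compared covered a median of 2.5 kb with doxycycline and 2.15 kb with water in shDPPA4, and 2.3 kb and 2.25 kb in shDPPA2+4. A change of at least 2-fold down was reached by 1 member in shDPPA4, FOXK1 (4.79% of all promoters), and by 2 in shDPPA2+4, FOXO6 and FOXK2 (22.9%). At FOXK1 it was -2.25 ± 0.40 on 29 reads with doxycycline and 23 with water, from domains of unequal width, and after prorating to the promoter window no member of shDPPA4 reached 2-fold. No member was at least 2-fold higher in RING1B density in either line (0.219% and 0.111% of all promoters compared).

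Per kb of domain, the lowest mean changes in RING1B density were those of FOXO6, FOXO3 and FOXO1. FOXO6 had log2 changes of -0.67 ± 0.18 in shDPPA4 and -1.19 ± 0.20 in shDPPA2+4, which became -0.21 and -0.35 with prorated reads. FOXO1 had -0.91 ± 0.17 and -0.42 ± 0.30, which became 0.22 and -2.04 with prorated reads, and in shDPPA2+4 it had 0.27 without scaling. FOXO6 and FOXO3 stayed below 0 in both lines under every setting tried, and FOXO3 had -0.72 ± 0.11 and -0.93 ± 0.14 per kb of domain and -0.34 and -1.21 with prorated reads. FOXD3 and FOXD4 had the highest mean changes per kb of domain. At FOXD3 the density was 186 reads per kb with doxycycline, against 123 with water, in shDPPA4, and 142 against 100.2 in shDPPA2+4, or log2 changes of 0.23 ± 0.05 and -0.19 ± 0.06 after scaling. With prorated reads FOXD3 had 0.23 and -0.71, FOXD4, at which reads of the copies can align, 0.51 and -0.41, and FOXA1 0.57 and -0.73.

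**Figure D5:**
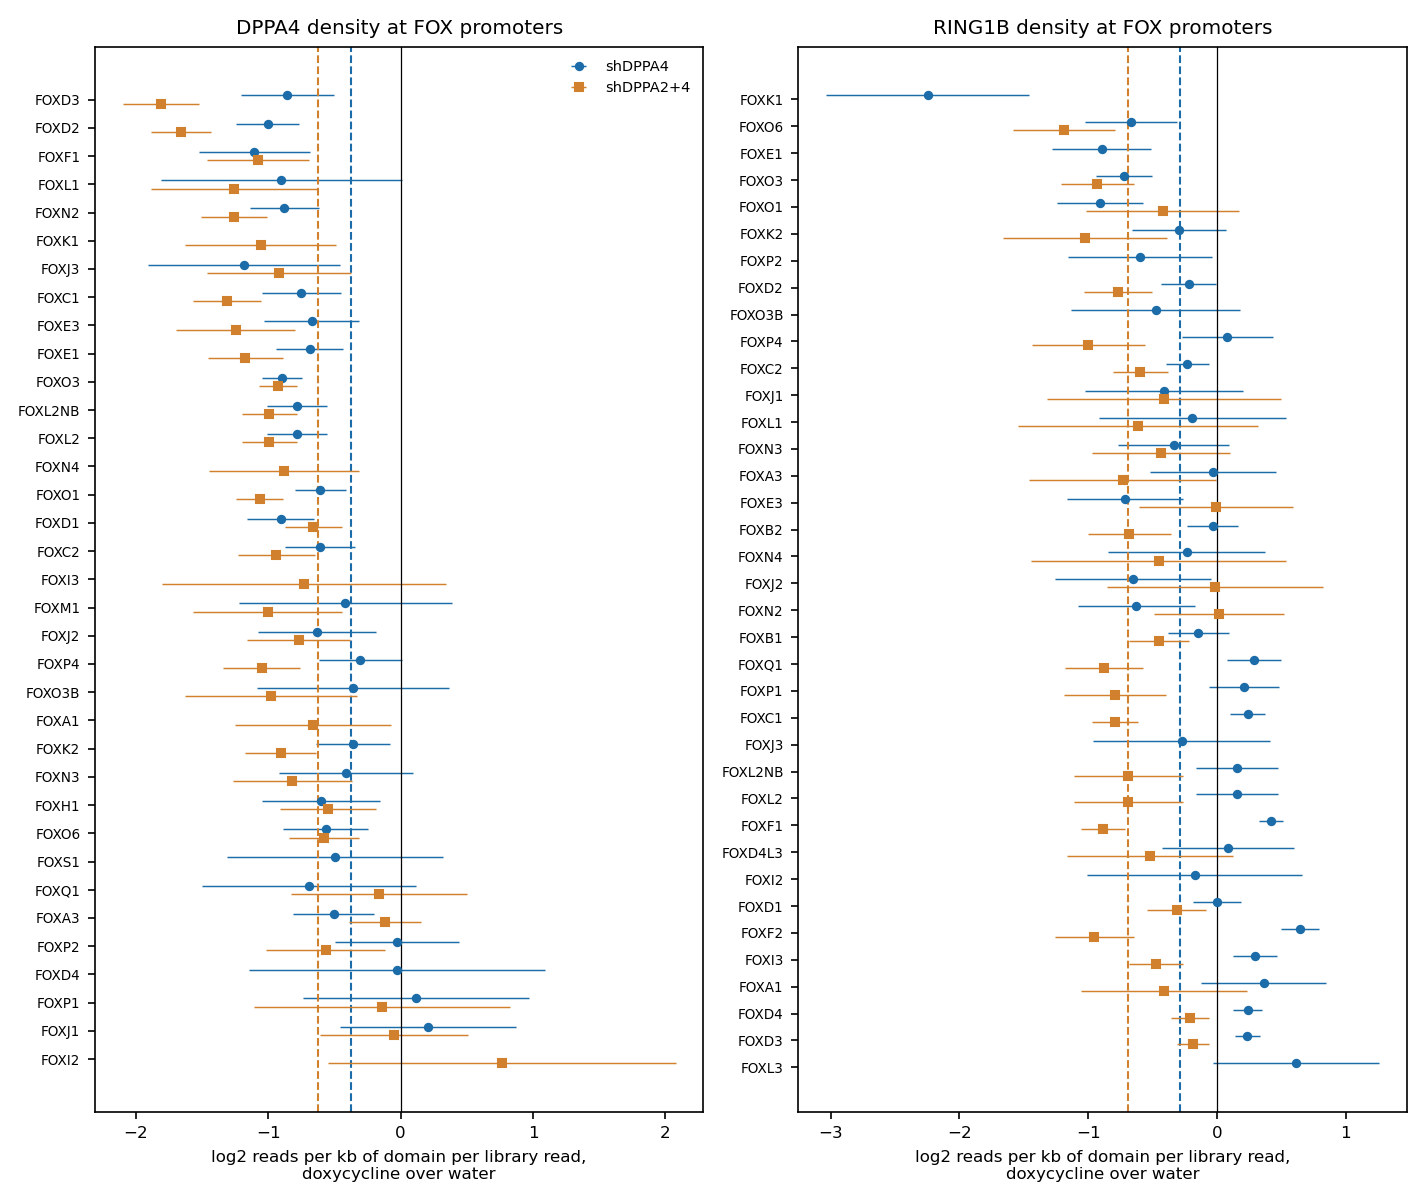
Log2 change in DPPA4 (left) and RING1B (right) reads per kb of domain per library read, doxycycline over water (horizontal axes), at FOX promoters with a domain in both arms, for shDPPA4 (circles) and shDPPA2+4 (squares). Bars are 95% intervals of counting error only, and dashed lines are the medians over all promoters in each line. With scaling for library size, DPPA4 points lie mostly below 0 in both lines (without it the median of shDPPA2+4 is 0.01), and RING1B points of shDPPA4 spread to both sides of 0, with FOXF2 and FOXF1 above it.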

How the data were processed

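CUT&RUN libraries of H661 and H1299 cells were analysed from the region lists that the authors deposited for each library, without pooling of replicates. The submitters' processing notes name Trim Galore 0.6.6, BWA 0.7.13, SAMtools 1.9, Picard 2.6.0, deepTools 3.5.0 and MACS2 2.27.1 and the build hg38 (GRCh38.p13), and a version of EPIC2 was not given in the sources used here. The EPIC2 files deposited by the authors hold, per domain of joined 100 bp bins, read counts of the library and its IgG control that are not normalized, a log2 fold over IgG scaled for library size, a p-value, an FDR and a score. The deposited MACS2 files hold per peak a fold enrichment (a ratio over local background), −log10 p and q values, an integer score and the summit.

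Autosomal regions with FDR below 0.05 and log2 fold above 1 (MACS2 fold above 2) were kept, as in the study. A blacklist was not applied. A protein was counted at a promoter if any of its regions touched the TSS ± 1500 bp (GENCODE 44, 19111 promoters). MACS2 was used for parental H661 and EPIC2 elsewhere. Library sizes were compared through the constant difference between the log2 fold and the log2 ratio of the counts, since both arms of each line had the same IgG counts in identical domains. Whole-library depth cannot be read from region lists, whose domains held 48208 to 6730407 reads per library, and errors printed on density changes cover counting only.

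H1299 libraries directed at DPPA2 and at DPPA4 were compared by an exact permutation test with Benjamini-Hochberg adjustment, checked on simulated data. Alternatives varied fold limits, window, caller, antibody, scaling, domain choice, replicates and members. Members, gene lists and tests were chosen with earlier results of these data known. Genes given with values were the strongest DPPA2 and DPPA4 promoters in parental H661, members with the fewest libraries, 14 factors chosen for their roles, the extremes of DPPA4 and RING1B change, the widest MTF2 and RING1B domains, and members whose state differed between H661 and H1299. FOXL2 and FOXL2NB share 1 window in effect and were counted as 2 members. IgG samples had no region lists and entered only as the controls of the files. Python 3.11.15, numpy 2.4.6, pandas 2.3.3 and matplotlib 3.10.9 were used. Values of some single genes are not reported here, and counts of members include them.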

Additional observations from a re-analysis of the deposited data

Results flagged for a closer look

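Between the hairpin lines, 7 members had RING1B density changes of opposite sign, each beyond counting error, with no replicate and no test of the difference. They were FOXF2, with a log2 change (doxycycline over water) of 0.64 in shDPPA4 and -0.95 in shDPPA2+4, FOXF1 (0.42 and -0.88), FOXI3 (0.30 and -0.47), FOXQ1 (0.29 and -0.88), FOXC1 (0.24 and -0.79), FOXD4 (0.24 and -0.21) and FOXD3 (0.23 and -0.19). All 7 had MTF2 domains averaging at least 5 kb, a limit set after the widths were seen, as did 11 of the 30 members compared and 1 of the 7 other members that were higher in shDPPA4 and lower in shDPPA2+4, and being beyond counting error favours wide domains with many reads. Over the 30 members compared in both lines, 14 were higher in shDPPA4 and lower in shDPPA2+4, 1 was the reverse and 15 were lower in both. Against the median of all promoters, which was below 0 in both lines (-0.28 and -0.69), FOXF2 lay 0.93 above it in shDPPA4 and 0.26 below it in shDPPA2+4. Without library scaling the changes at FOXD3 were 0.59 and 0.50, at FOXD4 0.60 and 0.48 and at FOXI3 0.65 and 0.22, so that their opposite signs rest on the scaling, and with the strongest domain alone FOXQ1 had 0.25 in shDPPA2+4. The lines differed in hairpin and library, which cannot be told apart.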

How the results depend on the processing

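Of 83 alternatives to the counts of members, 64 gave a count within 1.5 times that reported. For most alternatives the share of all promoters was not counted, so a moved count does not set FOX promoters apart from others. Among the genes given alternatives, no change past 2-fold in the reported setting changed sign, but smaller changes did. DPPA4 at FOXJ1 in shDPPA4, reported at 0.21, was 1.74 with the strongest domain alone and -2.38 with prorated reads. RING1B at FOXO1 in shDPPA2+4, reported at -0.42, was 0.27 without scaling and -2.04 with prorated reads. The count of 25 promoters with DPPA2 and DPPA4 in parental H661 became 0 with the central-region antibody. For both proteins in H1299 it was 6 with MACS2 peaks, and 18 to 28 when 1 replicate was left out. PCGF1 in both lines gave 7 with MACS2, and EP300 10 at a log2 fold above 2. For DPPA4 lower by 2-fold, shDPPA4 gave 27 without scaling, 7 with the strongest domain alone, 23 with reads prorated to the window and 13 with lost domains counted, and shDPPA2+4 gave 0 without scaling and 29 with prorated reads. For RING1B, shDPPA4 gave 4 with the strongest domain alone, 2 with TSS ± 500 bp and 0 with prorated reads, and shDPPA2+4 gave 0, 4, 5, 6 and 11 without scaling, with the strongest domain alone, with TSS ± 500 bp, with prorated reads and with lost domains counted. Prorating to the window and the 5′ end of the gene were chosen after seeing the data. Without scaling the median log2 change at FOX promoters was 0.01 for DPPA4 in shDPPA2+4 and 0.18 and 0.09 for RING1B in shDPPA4 and shDPPA2+4, each of the opposite sign to the scaled value. Scaling shifts every promoter of a line alike and prorating changes what is divided by, and other causes were not tested.

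Replicate numbers are shared by the H1299 antibodies, but the labels do not tie them to a culture, and deviations of same-numbered libraries correlated by 0.06 to 0.26 over 15 pairs of antibodies. With a replicate block the permutation test called 0 members, and 2 had an unadjusted p below 0.05. No test of DPPA2 against DPPA4 libraries called a member in any alternative. Within 1 replicate (3 against 3 libraries) the smallest possible p is 0.1. Depth limits what H1299 replicate 2 can show, since its domains held fewer reads than those of replicate 1.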
